A study of Mus musculus with 14 samples.

Results

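The genes described here are 8 mouse transcription factor genes that are associated with the memory precursor state of CD8+ T cells, namely Myb, Aff3, Bach2, Foxo1, Lef1, Tcf7, Bcl6 and Zbtb20. They were taken by gene symbol from the array's platform annotation. Of the 8 genes, 7 had a probe set carrying that name alone, out of 19937 genes measured in the series, and Tcf7 was not analysed here because the annotation used names no probe set for it. All 7 passed the filter on low signal and were among the 14438 genes tested. Zbtb20 had 2 probe sets, so that 8 probe sets were followed in all.

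During an acute infection, activated CD8+ T cells divide, and those that carry the surface receptor KLRG1 mostly die after the pathogen is cleared. Memory precursor cells, which keep the ability to persist and divide again, are found mainly among the cells low in KLRG1. The sample titles give the KLRG1 level and no other subset marker, so the KLRG1lo groups are not taken as memory precursors alone. The factors listed are DNA-binding proteins or cofactors of transcription known from memory precursor cells or from the naive cells that precede them. Id2 is an inhibitor that binds E proteins and keeps them from DNA, and Bim, encoded by Bcl2l11, is a protein that triggers cell death.

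RNA was profiled on 14 arrays, each with 1 colour, from OT-I CD8+ effector T cells, which carry a transgenic receptor for an ovalbumin peptide. For every group, 10000 cells from fetal liver chimeras had been given to congenic recipient mice, which were infected a day later with Listeria expressing ovalbumin, and the cells were sorted on day 6; the strain label is C57BL/6J throughout. The groups were KLRG1lo cells lacking Id2 (Id2KO, 2 arrays), KLRG1lo cells lacking both Id2 and Bim (Id2KOBimKO, 2 arrays), KLRG1lo cells lacking Bim (BimKO, 2 arrays), wild-type KLRG1hi cells (WT KLRG1hi, 3 arrays) and wild-type KLRG1lo cells (WT KLRG1lo, 5 arrays). The labels give neither the design of the deleted alleles nor the age of the mice, and nothing says that the arrays of a group came from separate mice, so the p-values measure only the spread between these arrays. The donor cells came from blood systems rebuilt from fetal liver, and the RNA was amplified through 2 rounds before it was labelled.

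Values are log2 of the deposited RMA signal, and a change is a difference of group means on that scale. RMA is a method that corrects the background of an array, normalizes it and combines the probes of a set. The median signal was 49.2 to 56.8 over the arrays before the log, and the number of arrays limits the precision. Id2 had a mean of 9.80 ± 0.10 in Id2KO and 9.74 ± 0.14 in Id2KOBimKO cells, against 10.84 ± 0.13 in BimKO and 10.93 ± 0.20 in WT KLRG1lo cells (SD, n = 2, 2, 2 and 5). Its signal was thus lower but not absent in the cells labelled as lacking Id2. The array medians of the probe sets without a gene name were 5.01 to 5.39. The cause of the remaining Id2 signal was not tested. Bcl2l11 was not lower in the cells labelled as lacking Bim, at 7.80 ± 0.30 in Id2KOBimKO and 7.51 ± 0.21 in BimKO cells against 7.60 ± 0.19 in WT KLRG1lo cells (SD, n = 2, 2 and 5), so the Bim genotype rests on the labels; no source used here says where its probes lie relative to the deletion. Klrg1 was at 11.04 ± 0.50 in WT KLRG1hi against 6.27 ± 0.29 in WT KLRG1lo cells (SD, n = 3 and 5). Xist, which is transcribed from the inactive X chromosome, averaged 4.73 in Id2KO cells and 8.90 to 10.11 in the other groups, and the sex of the cells is not in the labels. The summed level of 7 T cell identity genes was 14.19 to 14.80 on all arrays. Cd74, a gene of B cells and other antigen-presenting cells, lay at 7.77 to 8.73 on 5 arrays (Id2KOBimKO 2, BimKO 2 and WT KLRG1lo 3 to 5) and at no more than 6.25 on the other 9.

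The promoter windows of 3 genes are printed because Myb and Aff3 moved most and because Lef1 has a window with an E-box. Lef1 has 4 windows in the table, of which the second is printed for its E-box; the first, at the 5′ end of the gene, and the fourth held no match, and the third held CAGCTG. Each window runs from 250 bases before to 50 bases after a RefSeq transcription start (GRCm38.p6), is read 5′ to 3′ on the strand of the gene, and has in capitals any match, on either strand, to the letters searched. Those were the E-box hexamers CAGGTG and CAGCTG, to which E proteins bind, the forkhead motif GTAAACA, the TCF and LEF motif CTTTGAA and the AP-1 motif TGACTCA. No 2 of the matches in these windows overlap. Tcf7, which was not analysed on the arrays and is not printed, held CAGCTG in its first window. Its second window held CAGGTG and GTAAACA. The windows of Bcl6, Foxo1, Bach2 and Zbtb20 held no match. The start of the Bach2 window lies 179022 bases past the 5′ end of the gene, and that of the Zbtb20 window 371595 bases past it. For the Aff3 window the start lies 2934 bases past the 5′ end. The windows of these 3 genes therefore do not cover the 5′ end of the gene.
Myb, chr10:21160935-21161234, minus strand: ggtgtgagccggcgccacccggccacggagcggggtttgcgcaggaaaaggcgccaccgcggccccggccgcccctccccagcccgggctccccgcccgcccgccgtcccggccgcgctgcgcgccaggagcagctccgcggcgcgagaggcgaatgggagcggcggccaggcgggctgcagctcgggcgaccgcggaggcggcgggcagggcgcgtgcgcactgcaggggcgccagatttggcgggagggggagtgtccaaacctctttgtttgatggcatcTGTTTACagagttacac
Aff3, chr1:38627195-38627494, minus strand: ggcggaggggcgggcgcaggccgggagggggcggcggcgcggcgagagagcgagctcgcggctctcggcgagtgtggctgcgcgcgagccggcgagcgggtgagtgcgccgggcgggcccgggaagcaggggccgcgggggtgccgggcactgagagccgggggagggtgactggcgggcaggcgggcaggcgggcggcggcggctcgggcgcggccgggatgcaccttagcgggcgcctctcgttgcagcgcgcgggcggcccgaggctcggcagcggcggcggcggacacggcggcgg
Lef1, chr3:131110073-131110372, plus strand: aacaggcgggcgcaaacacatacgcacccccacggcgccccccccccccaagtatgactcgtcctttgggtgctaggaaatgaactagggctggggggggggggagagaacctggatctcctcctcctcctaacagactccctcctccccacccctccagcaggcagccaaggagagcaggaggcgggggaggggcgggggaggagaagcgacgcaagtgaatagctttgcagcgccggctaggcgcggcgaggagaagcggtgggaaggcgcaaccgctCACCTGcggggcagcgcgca
The Myb window held 225 G or C among its 300 bases and 1 match, the forkhead letters read on the opposite strand, beginning 33 bases after the start; 3.65% of the 32851 windows of all genes hold that motif. The second Lef1 window held 67.3% G and C and 1 match, the E-box CAGGTG read on the opposite strand, 30 bases after the start, a motif present in 20.2% of all windows. The Aff3 window held 83.3% G and C and no match. For comparison the median window of all genes held 52.7% G and C. A match is only a description of these letters, and a window without one says nothing of the factor.

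WT KLRG1hi cells were compared with WT KLRG1lo cells to ask how the genes differ between the subsets that the KLRG1 marker separates. Of the 7 genes, 3 were lower in WT KLRG1hi cells (Aff3, Myb and Bach2) and none was higher, at an adjusted p under 0.05 in limma over all genes; 0.263% of all genes tested were lower and 0.942% differed in either direction. The median change was -0.50 over the 7 genes and 0 over all genes. On an unadjusted p under 0.05, 6 of 7 were lower, where 2.86% of all genes were.

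Myb encodes a DNA-binding factor of blood progenitors and lymphocytes. It had 6.08, 6.08 and 6.58 in WT KLRG1hi cells, against 7.42, 7.81, 7.61, 7.59 and 7.58 in WT KLRG1lo cells. Every WT KLRG1hi array lay below every WT KLRG1lo array, as for 1.77% of all genes. The change was -1.35 ± 0.16 (SE; 95% interval -1.69 to -1.02), a level 2.56-fold lower, with an adjusted p of 0.000145.

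Aff3, a member of the AFF family of transcription elongation scaffolds, had 6.41, 6.46 and 7.22 in WT KLRG1hi cells, against 8.30, 8.62, 8.10, 8.16 and 8.43 in WT KLRG1lo cells. These groups did not overlap either, and array 3 of the WT KLRG1hi group was the nearest to the WT KLRG1lo arrays. The change was -1.63 ± 0.18 (SE; 95% interval -2.01 to -1.24), a 3.09-fold lower level with an adjusted p of 9.99e-05.

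Bach2, a repressor that competes with AP-1 factors at their sites, had 6.42, 6.87 and 6.97 in WT KLRG1hi cells, against 7.36, 7.47, 7.62, 7.42 and 7.25 in WT KLRG1lo cells. The arrays did not overlap. Its change was -0.67 ± 0.15 (SE; 95% interval -1.0 to -0.35), with an adjusted p of 0.0467, and it passed under 6 of the 20 alternative settings, at adjusted p from 0.00701 to 0.671. Leaving out any 1 WT KLRG1lo array ended its call, as did leaving out WT KLRG1hi array 1 (adjusted p = 0.171) or 2 (adjusted p = 0.152).

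Foxo1, a forkhead factor held out of the nucleus by antigen and growth signals, had 7.61, 8.01 and 8.23 in WT KLRG1hi cells, against 8.73, 8.77, 8.02, 8.28 and 8.46 in WT KLRG1lo cells. The ranges overlapped, since WT KLRG1lo array 3 lay between WT KLRG1hi arrays 2 and 3, and the change of -0.50 ± 0.18 had an adjusted p of 0.377. Lef1, an HMG-box factor of T cell development, had 8.71, 9.30 and 9.65 in WT KLRG1hi cells, against 9.45, 9.80, 9.85, 9.64 and 9.76 in WT KLRG1lo cells. These arrays overlapped as well, and the change of -0.48 ± 0.19 had an adjusted p of 0.46.

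Bcl6, a BTB zinc finger repressor, had 5.82, 5.61 and 5.68 in WT KLRG1hi cells, against 5.97, 5.97, 6.23, 6.52 and 6.01 in WT KLRG1lo cells. Every WT KLRG1hi array was lower, but the change of -0.44 ± 0.16 did not pass (adjusted p = 0.371). Zbtb20, a BTB zinc finger factor related in structure to Bcl6, had 4.77, 5.35 and 5.87 in WT KLRG1hi cells, against 4.94, 5.64, 5.27, 5.34 and 5.33 in WT KLRG1lo cells. Its change was 0.02 ± 0.22 (adjusted p = 1), and its second probe set changed by -0.50 ± 0.21 (adjusted p = 0.559), so its probe sets disagree in sign. The median of the probe sets without a gene name was 5.01 to 5.39, and Zbtb20 lay at 4.77 to 5.87 in these 8 arrays, around that range, with Bcl6 at 5.61 to 6.52, so the size of their changes is uncertain. In bulk samples such as these, fewer cells of a type and less RNA per cell cannot be told apart.

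The arrays fell into a set of 6 with a lower and a set of 8 with a higher median of the unnamed probe sets, at 5.01 to 5.07 in the lower set; both sets were recognised in the data, not in the labels. Within the lower and the higher set, the Myb change was -1.53 and -1.01, the Aff3 change -2.03 and -1.0, and the Bach2 change -0.77 and -0.47, without a test. For Foxo1 it was -0.94 and -0.03, and for Lef1 -0.62 and -0.10, so for these 2 genes the difference was much larger in the lower set. The lower set held 2 arrays of each group here, and the higher set 1 WT KLRG1hi and 3 WT KLRG1lo arrays. The summed level of 13 B cell markers was 8.87 to 9.15 in WT KLRG1hi and 9.16 to 10.33 in WT KLRG1lo cells. None of the 10 B cell markers tested passed, though all 10 had a negative change with a median of -0.41. Over the 14 arrays Cd74 had a correlation of 0.48 with Bach2 and of 0.21 with Myb and Aff3, as a description. The spread of an array (the interquartile range of its log2 values) had a correlation of 0.69 with Foxo1 and -0.52 with Bcl6, also as a description. Leaving out the 5 arrays above the Cd74 gap keeps only arrays 1 and 2 of the WT KLRG1lo group, and array 1 alone of the Id2KOBimKO and BimKO groups. With these fewer arrays the Bach2 change was the same, at -0.67, but its call was lost, while Myb and Aff3 passed. The cause of that loss was not tested. Neutrophil markers were negative in 5 of 5 tested (median -0.18) and red cell precursor markers in 3 of 3 (median -0.99), with none passing; the summed red cell markers lay at 6.63 to 7.03 in WT KLRG1hi and 7.16 to 8.97 in WT KLRG1lo cells. The part of these cells in the results was not tested.

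**Figure D1:**
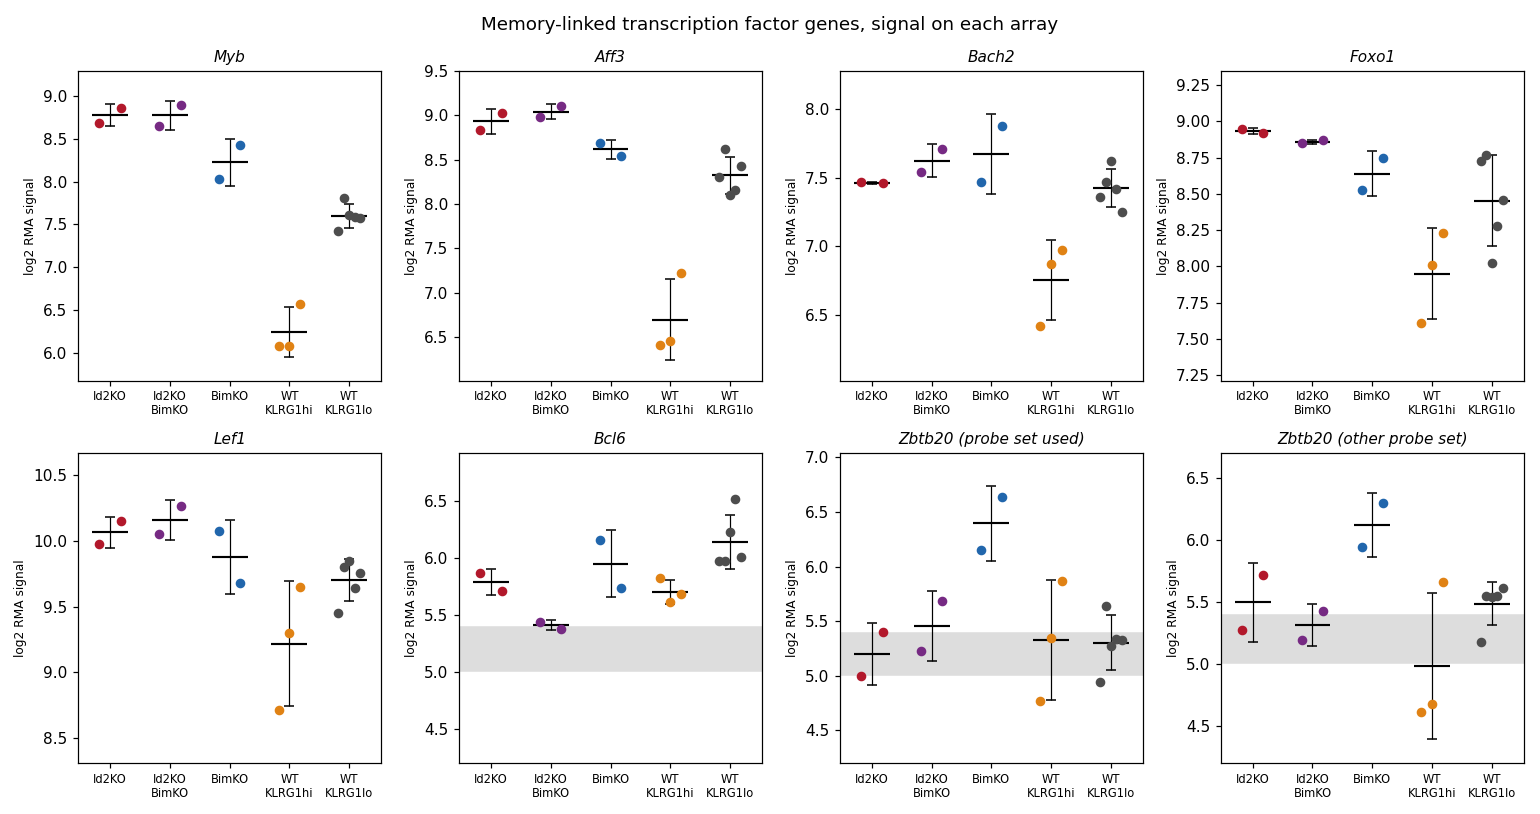
Log2 RMA signal of the 7 genes on each array (points), by group, with bars for the mean and the standard deviation; the grey band spans the array medians of the probe sets without a gene name, 5.01 to 5.39. Myb and Aff3 are lowest in WT KLRG1hi cells and Zbtb20 is highest in BimKO cells.

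**Figure D2:**
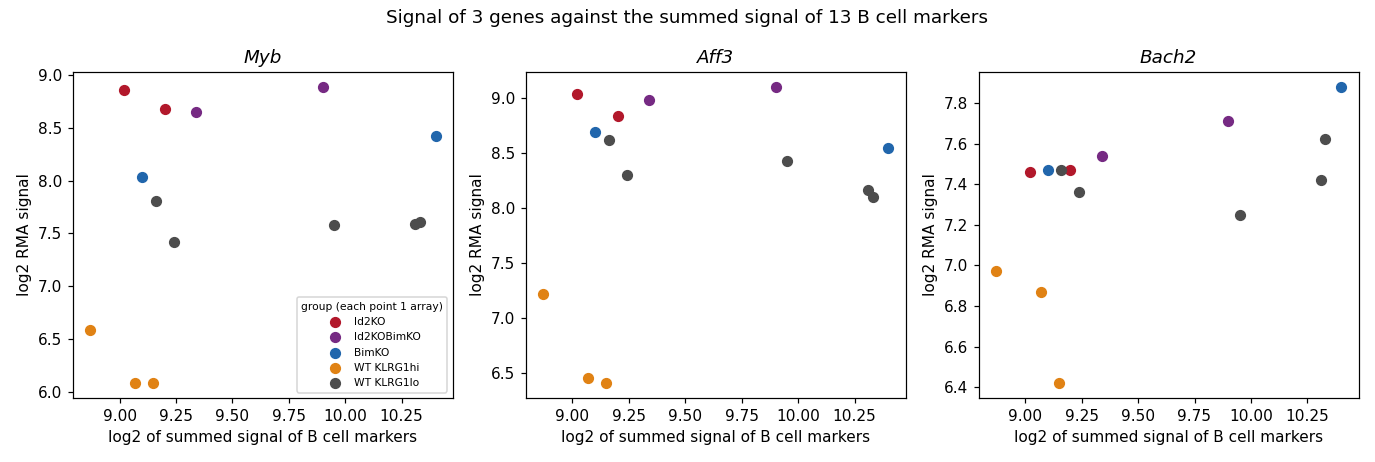
Log2 RMA signal of Myb, Aff3 and Bach2 (vertical axis) against the log2 summed signal of 13 B cell markers (horizontal axis), 1 point per array, coloured by group. The 3 WT KLRG1hi arrays have the lowest signal in every panel, at marker sums of 8.87 to 9.15, and the Id2KO arrays are high for Myb at marker sums of 9.02 to 9.20.

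Id2KO cells were compared with WT KLRG1lo cells to ask what the loss of Id2 changes in cells low in KLRG1. Myb rose, as 1 of 7 genes, and no other member passed; 0.111% of all genes did, and 0.0831% were higher. Median changes were 0.36 over the 7 genes and 0.03 over all genes. On an unadjusted p under 0.05, 3 of 7 were higher (10.7% of all genes) and none was lower (7.38%).

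Myb had 8.68 and 8.86 in Id2KO cells, against 7.42, 7.81, 7.61, 7.59 and 7.58 in WT KLRG1lo cells, which puts both Id2KO arrays above all 5. That non-overlap, with the Id2KO arrays higher, occurred in 14.2% of all genes. The change was 1.17 ± 0.18 (SE; 95% interval 0.79 to 1.55), a 2.24-fold higher level, with an adjusted p of 0.00912. Its call was lost under 6 of 19 alternatives, in which the change stayed between 0.91 and 1.26. Among them were quantile normalization (adjusted p = 0.0551) and the array spread as a covariate (adjusted p = 0.0574). The call was also lost without Id2KO array 1 or 2 (changes of 1.26 and 1.08), which leaves 1 Id2KO array. Without the 5 arrays above the Cd74 gap it was lost too (change of 1.15), with only WT KLRG1lo arrays 1 and 2 kept.

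Aff3 had 8.83 and 9.03 in Id2KO cells, against 8.30, 8.62, 8.10, 8.16 and 8.43 in WT KLRG1lo cells. Foxo1 had 8.95 and 8.92 in Id2KO cells, against 8.73, 8.77, 8.02, 8.28 and 8.46 in WT KLRG1lo cells. Lef1 had 9.98 and 10.15 in Id2KO cells, against 9.45, 9.80, 9.85, 9.64 and 9.76 in WT KLRG1lo cells. In these 3 genes both Id2KO arrays lay above all WT KLRG1lo arrays, but the changes of 0.61 ± 0.21, 0.48 ± 0.21 and 0.36 ± 0.21 did not pass, at adjusted p of 0.275, 0.275 and 0.298. Bcl6 lay below all WT KLRG1lo arrays (14.2% of all genes), at 5.87 and 5.71 in Id2KO cells, against 5.97, 5.97, 6.23, 6.52 and 6.01 in WT KLRG1lo cells. Its change was -0.35 ± 0.18 (adjusted p = 0.275). Bach2 (0.04 ± 0.18) and Zbtb20 (-0.10 ± 0.25) had arrays that overlapped; the intervals of their differences run from -0.33 to 0.41 and from -0.64 to 0.43. In the same comparison T cell identity genes were positive in 7 of 7, with a median of 0.33 that is close to the median of the 7 factors, and none passed. Median changes were -0.43 for 10 B cell, -0.54 for 5 neutrophil, -0.42 for 7 monocyte and -0.34 for 6 dendritic cell markers. They were -0.58 for 4 NK, -0.46 for 3 red cell precursor and 0.03 for 6 CD4 and regulatory T cell markers. None of these markers passed either. Summed B cell markers were at 9.02 to 9.20 in Id2KO cells and 9.16 to 10.33 in WT KLRG1lo cells, and the part of other cells in the result was not tested. Low Xist and the loss of Id2 cannot be told apart in Id2KO cells. Myb averaged 8.77 in Id2KO cells and 8.77 in Id2KOBimKO cells, which had Xist at 9.69 but also differ in Bim. BimKO cells had Myb at 8.23 and Xist at 10.11. The part of sex in the Myb change was not tested.

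Id2KOBimKO cells were compared with BimKO cells as a second test of Id2 loss, in cells without Bim. No member passed, and 0% of all genes did, although 1.81% had an unadjusted p under 0.05. Id2 itself changed by -1.1 ± 0.22 in this limma comparison (unadjusted p = 0.000122) and did not pass (adjusted p = 0.587). With 2 arrays in each group, a gene that was not called here is therefore not shown to be unchanged. For Myb, the arrays had 8.65 and 8.89 in Id2KOBimKO cells, against 8.03 and 8.42 in BimKO cells, a change of 0.54 ± 0.22 (unadjusted p = 0.0217). Bcl6 had 5.44 and 5.38 in Id2KOBimKO cells, against 6.16 and 5.74 in BimKO cells, a change of -0.54 ± 0.21 (unadjusted p = 0.0214). Zbtb20 had 5.23 and 5.68 in Id2KOBimKO cells, against 6.15 and 6.64 in BimKO cells, a change of -0.93 ± 0.30 (unadjusted p = 0.00693); its second probe set changed by -0.81 ± 0.29. The 2 groups did not overlap for Myb, Aff3 and Foxo1 with Id2KOBimKO higher (17.6% of all genes), nor for Bcl6 and Zbtb20 with Id2KOBimKO lower (12% of all genes).

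Averaged over both Bim backgrounds, the effect of Id2 loss on Myb was 0.85 ± 0.14 (SE; 95% interval 0.56 to 1.15), a 1.81-fold higher level with an adjusted p of 0.0108, and it was the 1 of 7 to pass, where 0.18% of all genes did. This call was lost without Id2KO array 2 (0.81), BimKO array 1 (0.76) or Id2KOBimKO array 2 (0.79), each of which leaves 1 array in its group. It was also lost without the 5 arrays above the Cd74 gap (0.89), which keeps array 1 alone of the BimKO and Id2KOBimKO groups. Aff3 changed by 0.52 ± 0.16 and Bcl6 by -0.45 ± 0.14, at adjusted p of 0.522 and 0.515. The other 4 genes lay between -0.52 and 0.35. The difference between the backgrounds, Id2KOBimKO minus BimKO less Id2KO minus WT KLRG1lo, passed for none of the 7 (0.0277% of all genes did). That difference was -0.62 ± 0.28 for Myb (95% interval -1.21 to -0.03; adjusted p = 0.726) and -0.83 ± 0.40 for Zbtb20 (adjusted p = 0.726).

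BimKO and Id2KOBimKO cells were each also set against WT KLRG1lo cells. All of these comparisons share the same 5 WT KLRG1lo arrays, so their values are given side by side only. BimKO cells changed none of the 7 genes at the adjusted threshold, and 0% of all genes; 2 of the 7 had arrays above all WT KLRG1lo arrays (5.6% of all genes). Myb had 8.03 and 8.42 in BimKO cells, a change of 0.63 ± 0.18 (adjusted p = 0.657). For Zbtb20 the BimKO arrays were at 6.15 and 6.64, against 4.94 to 5.64 in WT KLRG1lo cells, and the change was 1.09 ± 0.25 (95% interval 0.55 to 1.62; unadjusted p = 0.000514; adjusted p = 0.657). Its second probe set gave 0.64 ± 0.24, with the BimKO arrays likewise above, so that both probe sets put BimKO above WT KLRG1lo cells without either passing over all genes. Summed B cell markers were 9.10 on BimKO array 1 and 10.40 on array 2, and summed CD4 and regulatory T cell markers 8.84 and 9.90. Both BimKO arrays lay in the set with the higher median of the unnamed probe sets. Within that set the Zbtb20 change was 1.08, without a test. The part of other cells in it was not tested.

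In Id2KOBimKO cells, Myb was the one gene to pass against WT KLRG1lo cells, where 0.0623% of all genes passed. Its change was 1.17 ± 0.18 (SE; 95% interval 0.79 to 1.55), a 2.25-fold higher level, with an adjusted p of 0.0182. The call was lost under 7 of 19 alternatives. These include leaving out WT KLRG1lo array 1, 4 or 5 (adjusted p = 0.052, 0.054 and 0.0624). They also include leaving out Id2KOBimKO array 1 or 2 (changes of 1.29 and 1.05) and the 5 arrays above the Cd74 gap (1.03). Each of those leaves 1 Id2KOBimKO array. Bcl6 was at 5.44 and 5.38 in Id2KOBimKO cells, below all WT KLRG1lo arrays as for 7.27% of all genes, and its change was -0.73 ± 0.18 (unadjusted p = 0.000734; adjusted p = 0.392). Aff3 changed by 0.72 ± 0.21 (adjusted p = 0.785) and, with Myb, Foxo1 and Lef1, lay above all WT KLRG1lo arrays, as for 5.29% of all genes.

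**Figure D3:**
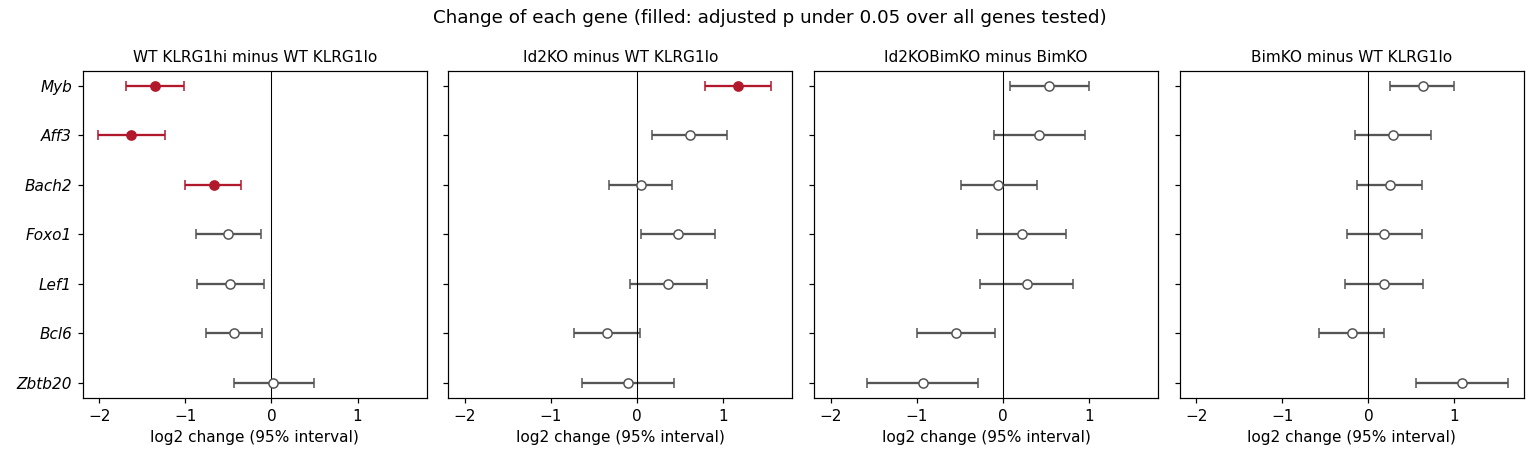
Log2 change of each gene with its 95% interval in 4 comparisons; filled points passed an adjusted p under 0.05 over all genes tested. Myb, Aff3 and Bach2 are filled on the left, and Myb alone is filled in Id2KO minus WT KLRG1lo cells.

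Ordered by level, Myb was highest in Id2KO (8.77 ± 0.13, SD, n = 2) and Id2KOBimKO cells (8.77 ± 0.17, n = 2), whose arrays overlap. Then came BimKO (8.23 ± 0.28, n = 2), WT KLRG1lo (7.60 ± 0.14, n = 5) and WT KLRG1hi cells (6.25 ± 0.29, n = 3). All Id2KOBimKO arrays lay above all BimKO arrays (17.6% of all genes). BimKO arrays lay above all WT KLRG1lo arrays (5.6%), and WT KLRG1hi arrays below all WT KLRG1lo arrays (1.77%). The Id2KO arrays also lay above the BimKO arrays, 2 against 2, in groups that differ in both Id2 and Bim. No share over all genes was computed for that step. For Aff3 the order was Id2KOBimKO (9.04 ± 0.08), Id2KO (8.93 ± 0.14), BimKO (8.61 ± 0.10), WT KLRG1lo (8.32 ± 0.21) and WT KLRG1hi (6.70 ± 0.46). Of its neighbours, Id2KOBimKO and Id2KO overlapped, and so did BimKO and WT KLRG1lo. For the genes compared, Myb and Aff3 had a correlation of 0.96 over the 14 arrays (0.91 over the 11 KLRG1lo arrays), and Foxo1 and Aff3 one of 0.89 (0.83). Bcl6 had a correlation of -0.16 with Myb over 14 arrays, and of -0.79 over the 11 KLRG1lo arrays. These are descriptions across arrays that share platform, amplification and background.

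The genes most like each member over the 14 arrays were named without regard to function. Apobec3, Btla and Gpr183 followed Myb (0.979, 0.976 and 0.962), and Slamf6, Gpr183 and Pdk1 followed Aff3 (0.971, 0.969 and 0.966). Stk39, Ifi206 and Gpr183 were nearest to Bach2 (0.936, 0.923 and 0.909), but within the 11 KLRG1lo arrays the correlation with Gpr183 was 0.502. Fam78a, Sidt1 and Chd3 were nearest to Foxo1 (0.965, 0.964 and 0.96), and Brf1, Ifi214 and Milr1 to Lef1 (0.953, 0.951 and 0.948). For Bcl6 they were Rnf122, Hdc and Alpl (0.851, 0.838 and 0.83), and for Zbtb20 Skap2, Mms22l and Slc14a1 (0.875, 0.845 and 0.835).

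Other genes of the same biology were counted as lists, which were chosen with earlier results of these data known. Of 16 memory precursor surface and survival genes tested, 9 were lower in WT KLRG1hi than in WT KLRG1lo cells and none was higher. Over all genes tested 0.263% were lower and 0.679% higher. All 16 changes were negative, with a median of -1.01. Dapl1, a gene of early memory T cells, changed by -3.35 ± 0.30 (adjusted p = 1.21e-05), Gpr183, a lipid-guided migration receptor, by -1.49 ± 0.20 (0.000862), Slamf6, a surface marker of memory-like cells, by -1.43 ± 0.20 (0.00119), and Il7r, the receptor for the survival cytokine IL-7, by -1.48 ± 0.22 (0.0017). In Id2KO against WT KLRG1lo cells 1 of 16 passed, where 0.111% of all genes did. It was Cxcr5, a chemokine receptor of follicle-homing lymphocytes, at 1.80 ± 0.21 (adjusted p = 0.000547). All 16 changes were positive with a median of 0.69. In BimKO against the same WT KLRG1lo cells, with Id2 present, all 16 changes were positive too, with a median of 0.50 and none passing. In Id2KOBimKO against BimKO cells none passed, 8 of 16 were positive and the median was 0.01.

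Of 14 genes bound by or dependent on FOXO1 in T cells, 2 were lower in WT KLRG1hi cells, where 0.263% of all genes were. They were Il7r, above, and Ccr7, a lymph node homing receptor, at -1.38 ± 0.22 with an adjusted p of 0.00371. The median over the 14 genes was -0.08. In Id2KO against WT KLRG1lo cells none passed, 13 of 14 changes were positive and the median was 0.35, while in Id2KOBimKO against BimKO cells 5 of 14 were positive with a median of -0.07. Of 12 regulators of terminal effector cells, 4 were higher in WT KLRG1hi cells, where 0.679% of all genes were, and 8 did not pass; the median was 0.18 and 3 of the 12 changes were negative. Those that passed were Zeb2, a repressor (1.61 ± 0.19; adjusted p = 0.000206), Bhlhe40, a stress-linked repressor (1.54 ± 0.24; 0.00267), Prdm1, which encodes Blimp-1 (0.95 ± 0.15; 0.00267), and Tbx21, which encodes T-bet (0.83 ± 0.16; 0.0203). None of the 17 tested family relatives of the 8 factors passed in any comparison, and none of the 17 partners and corepressors did; in Id2KO against WT KLRG1lo cells the partners had a median of 0.26 with 14 of 17 positive, and the relatives a median of 0.08, against 0.03 over all genes. Among 7 E and Id proteins, Id2 alone passed, lower in Id2KO cells (-1.13 ± 0.19; adjusted p = 0.0162), in Id2KOBimKO cells against WT KLRG1lo cells (-1.19 ± 0.19; adjusted p = 0.0182) and in the mean Id2 effect.

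Of the other cell-type lists, 1 of 4 tested NK markers was higher in WT KLRG1hi than in WT KLRG1lo cells, where 0.679% of all genes were. It was Klrb1c, at 2.92 ± 0.29 (adjusted p = 3.12e-05). No tested marker of monocytes, neutrophils, dendritic cells, CD4 T cells or red cell precursors passed in any comparison. Summed NK markers lay at 10.20 to 11.30 in WT KLRG1hi and 9.73 to 10.17 in WT KLRG1lo cells, and their part in the results was not tested.

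**Figure D4:**
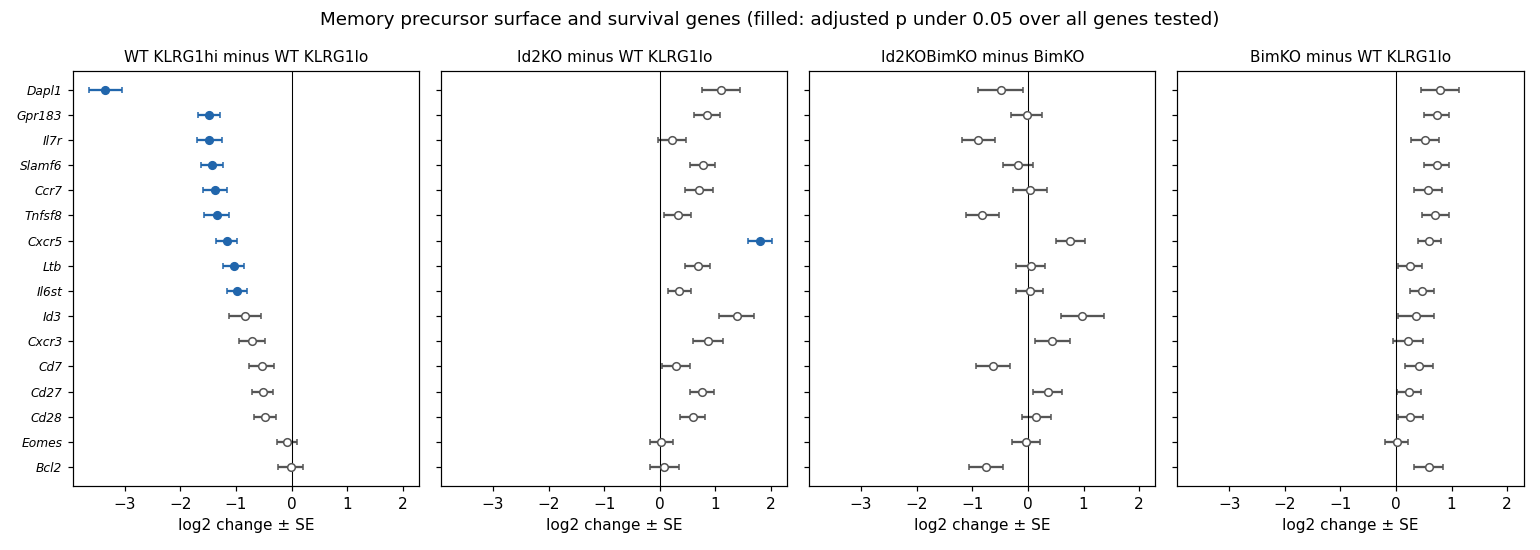
Log2 change with its standard error for the 16 memory precursor surface and survival genes in 4 comparisons; filled points passed an adjusted p under 0.05 over all genes tested. In WT KLRG1hi minus WT KLRG1lo cells 9 are filled, all negative, and in Id2KO minus WT KLRG1lo cells only Cxcr5 is filled.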

How the data were processed

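Arrays of sorted T cells in 5 groups were read from the authors' deposited series matrix, which holds RMA signal as intensity on a linear scale; per the submitters' processing notes it was made with RMA and mm9, versions not given in the sources used here. Groups came from the sample titles. The intensity was turned to log2 with no offset. Of 34760 probe sets, 21640 have 1 gene name, 1321 several and 11799 none; 21553 of the first matched RefSeq by Entrez number. The probe set with the highest mean stood for its gene, and genes had to exceed the 40th percentile of an array on at least 2 arrays. Limma 3.58.1 in R 4.3.3 fitted 5 group means over all 14 arrays, with 9 residual and 7.99 prior degrees of freedom, and Benjamini-Hochberg adjustment over all genes tested. The fit was tested on simulated data with changes larger than any found here for the members. Recovery of changes of their size was not tested. Intervals cover 95%. Named list genes were those that passed, up to 4 by smallest p in a comparison, and the likeness genes the 3 with the highest correlation. The members and lists were chosen with earlier results of these data known.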

Additional observations from a re-analysis of the deposited data

Results flagged for a closer look

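The second probe set of Zbtb20 was at 5.18 on WT KLRG1lo array 1, apart from the other 4 WT KLRG1lo arrays, which lay between 5.54 and 5.61. It is a sample far from the others of its group by Dixon's criterion, which chance meets in about 1 in 20 groups.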

How the results depend on the processing

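Myb and Aff3 passed in WT KLRG1hi against WT KLRG1lo cells under all 20 alternatives, with changes of -1.52 to -1.19 and -1.89 to -1.48. Foxo1 passed there under quantile normalization (-0.54, adjusted p = 0.0396) and with the array spread as a covariate (-0.58, adjusted p = 0.00633). The alternatives without the 5 arrays above the Cd74 gap, with the array set as a covariate and with WT KLRG1lo arrays 3 to 5 alone were chosen after seeing the data. Without the 5 arrays, WT KLRG1lo arrays 1 and 2, Id2KOBimKO array 1 and BimKO array 1 are all that remain of those groups. The cause of the changes below was not tested, and signal near background limits Zbtb20 and Bcl6. Correlations of the deviations of same-numbered arrays ran from -0.524 to 0.41. In WT KLRG1hi against WT KLRG1lo they were -0.185, 0.061 and -0.524, and in Id2KO against WT KLRG1lo 0.209 and 0.156; with no label that ties the numbers to a mouse or day, the arrays were taken to share only a number. With a replicate block Bach2 changed by -0.73 (adjusted p = 0.125), and Myb by 1.24 in Id2KO against WT KLRG1lo (adjusted p = 0.0955).

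Genes passing in WT KLRG1hi against WT KLRG1lo numbered 136, and 225 under quantile normalization, 42 with a replicate block, 376 with array spread, 78 with only the groups compared, 33 without the 5 arrays, 255 with WT KLRG1lo arrays 3 to 5 alone and 45 to 179 on leaving out 1 array; 2 to 3 members passed on leaving out 1 array. In Id2KO against WT KLRG1lo the 16 genes became 5 with the block, 26 with only the groups compared, 4 without the 5 arrays, 708 with WT KLRG1lo arrays 3 to 5 alone and 4 to 39 on leaving out 1 array, and the 1 member became 0 under quantile normalization, the block, array spread and without the 5 arrays, and 0 to 1 on leaving out 1 array. In Id2KOBimKO against BimKO the 0 genes became 1 under quantile normalization, 4 with array spread and 0 to 3 on leaving out 1 array. For the mean Id2 effect the 26 genes became 8 with the block, 52 with array spread, 3 without the 5 arrays and 13 to 31 on leaving out 1 array, and the 1 member became 0 with the block and without the 5 arrays, and 0 to 1 on leaving out 1 array. In BimKO against WT KLRG1lo 0 to 8 genes passed on leaving out 1 array. In Id2KOBimKO against WT KLRG1lo the 9 genes became 0 with the block, 24 with array spread, 0 without the 5 arrays and 0 to 13 on leaving out 1 array, and the 1 member became 0 with the block and without the 5 arrays, and 0 to 1 on leaving out 1 array. For the difference between Bim backgrounds the 4 genes became 1 without the 5 arrays and 3 to 6 on leaving out 1 array.

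The sign turned only for changes that had not passed. For Zbtb20, WT KLRG1hi against WT KLRG1lo gave -0.04 with array spread, -0.24 as a mean over probe sets, -0.50 by the second probe set and -0.24 to 0.30 on leaving out 1 array; Id2KO against WT KLRG1lo gave 0.03 under quantile normalization, 0.04 with the block, 0.01 by the second probe set and -0.31 to 0.10 on leaving out 1 array. Id2KOBimKO against WT KLRG1lo gave -0.01 with array spread or as a mean over probe sets, -0.17 by the second probe set, -0.06 without the 5 arrays and -0.07 to 0.38 on leaving out 1 array. For Bach2, Id2KO against WT KLRG1lo gave -0.15 under quantile normalization, -0.10 with array spread and 0 to 0.09 on leaving out 1 array. Id2KOBimKO against BimKO gave Bach2 0.07 without the 5 arrays, 0.01 with the array set and -0.25 to 0.16 on leaving out 1 array, and Lef1 -0.03 without the 5 arrays. The mean Id2 effect on Bach2 was 0.01 with the block, 0.06 without the 5 arrays, 0.03 with the array set and -0.10 to 0.10 on leaving out 1 array. BimKO against WT KLRG1lo gave Bcl6 0.19 and Foxo1 -0.22 without the 5 arrays, and on leaving out 1 array -0.40 to 0.02 for Bcl6 and -0.02 to 0.37 for Lef1. The difference between Bim backgrounds gave, under quantile normalization, 0.15 for Lef1, 0.09 for Bach2 and 0.07 for Aff3, with array spread 0.08 for Lef1, 0.07 for Foxo1, 0.02 for Bach2 and 0.10 for Aff3, without the 5 arrays 0.13 for Foxo1 and 0.02 for Bach2, and with the array set 0.03 for Lef1. On leaving out 1 array it was -0.28 to 0.11 for Lef1, -0.40 to 0.02 for Bcl6 and -0.29 to 0.11 for Bach2.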
